A study of Mus musculus with 28 samples.

Results

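Tibialis anterior (TA) muscle of 4 *Dnm2* S619L/+ mice on tamoxifen was compared with TA muscle of 4 WT mice on tamoxifen, so that the drug was present on each side and the genotype differed. The mice were chosen by their genotype and treatment labels, and they are 8 of the 28 mice of the series and 8 of the 16 mice of the *Dnm2* cohort. The other 8 mice of that cohort, 4 *Dnm2* S619L/+ and 4 WT on placebo, share no mouse with this comparison, and their genotype difference is set beside it throughout. RNA-seq reads per gene were counted in 1 library per mouse. All mice of the cohort were C57BL/6N and 8 weeks of age. *Dnm2* S619L/+ mice are heterozygous for a point mutation and keep a normal copy of the gene, and WT mice carry no mutant copy. The paper describes the tamoxifen of the disease models as a supplement of the diet, and the dose is not given in the sources used here. The labels number the mice of a group as replicates without naming litters, so p-values measure the spread between these samples only.

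Dynamin 2, the product of *Dnm2*, is a GTPase that assembles around the neck of membrane buds and cuts them from the parent membrane. Mutations in *DNM2* cause a dominant form of centronuclear myopathy, in which muscle is weak and nuclei lie away from the edge of the fiber, and mutations in *BIN1* and *MTM1* cause other forms. Amphiphysin 2, made from *BIN1*, bends membranes, binds dynamin 2 and shapes the T-tubules that carry the action potential into the fiber. Tamoxifen binds the estrogen receptor and acts as an agonist or antagonist depending on the tissue.

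Reads assigned to genes ranged from 20989876 to 46556589 in the WT tamoxifen mice and from 21588926 to 33651769 in the *Dnm2* S619L/+ tamoxifen mice. On placebo they ranged from 15586333 to 109710886 in WT and from 21520228 to 41940004 in *Dnm2* S619L/+ mice. Levels are given as CPM, the reads of a gene scaled to a common library total with TMM factors. Each of 12 defining genes of skeletal muscle was at 1780 CPM or more in all 8 mice, the lowest being *Des* (desmin). Sex is not among the labels, and sex-linked transcripts were not balanced between the groups. *Xist*, the RNA of the inactive X chromosome, was at 148, 151, 148 and 161 CPM in the 4 *Dnm2* S619L/+ mice and at 182, 144, 0.424 and 0.966 CPM in WT mice 1 to 4. The 4 Y-linked genes examined summed to 176 and 158 CPM in WT mice 3 and 4 and to at most 0.0402 CPM in the other 6 mice. On placebo *Xist* was above 100 CPM in mice 1 and 4 of each genotype and at most 0.096 CPM in mice 2 and 3. The imbalance was thus present in the tamoxifen comparison and not in the placebo comparison. Marker genes of bone cells and bone matrix were a further feature of both tamoxifen groups. Their summed level was 1030, 2220, 2750 and 90.4 CPM in *Dnm2* S619L/+ mice 1 to 4 and 3260, 3710, 1510 and 1900 CPM in WT mice 1 to 4, against means of 43.4 and 56.6 CPM in the *Dnm2* S619L/+ and WT placebo mice. *Dnm2* S619L/+ mouse 4 therefore stood apart from the other 7 tamoxifen mice, and it was also lowest of the 8 for the summed osteoclast (128 CPM), cartilage (33 CPM), tendon (304 CPM) and macrophage and leukocyte (184 CPM) markers. The part of sex and of these other tissues in the differences below was not tested beyond fits with *Xist* as a covariate, with the bone level as a covariate or on mice with *Xist* above 100 CPM alone.

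Of 15439 genes tested, 417 (2.7%) differed between the genotypes on tamoxifen at a Benjamini-Hochberg adjusted p under 0.05 in edgeR's quasi-likelihood test. Levels were higher in *Dnm2* S619L/+ for 337 of them (2.18% of genes tested) and lower for 80 (0.518%). Fold changes are given as log2FC ± its standard error (SE), where 1 is a 2-fold difference, and 171 of the higher and 32 of the lower genes passed that size. The 4 values of one group lay wholly above or below the 4 of the other for 402 of the 417 genes, against 10.7% of all genes tested (6.37% higher, 4.31% lower) and 24.9% on placebo. The placebo comparison, fitted in the same model over the same 15439 genes, called 3382 genes (21.9%), 1868 higher (12.1%) and 1514 lower (9.81%). The number of calls on tamoxifen depended on single mice. It was 182 without *Dnm2* S619L/+ mouse 1, 203, 228 and 260 without WT mice 1, 2 and 3, and 623 without WT mouse 4. Leaving out 1 placebo mouse gave 346 to 507 calls, with 15624 to 15707 genes tested. With the bone marker level as a covariate, an alternative chosen after seeing the data, 338 genes were called, 208 higher (61.5%) and 130 lower, where 80.8% of the calls were higher without it. Among the mice with *Xist* above 100 CPM alone, also chosen after seeing the data, 866 genes were called, 290 of the 417 among them. That fit held *Dnm2* S619L/+ tamoxifen mice 1 to 4 but only WT tamoxifen mice 1 and 2. Of each placebo group it held mice 1 and 4 only. The part of group size in this count was not tested.

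Most genes called on tamoxifen were also called on placebo. Of the 417, 336 (80.6%) were called in the placebo comparison in the same direction, 274 higher and 62 lower, and 0 were called in the opposite direction. These 336 were 9.93% of the genes called on placebo. The other 81 included 75 with the same sign. Over the genes called on tamoxifen, which were chosen by their tamoxifen values, the median size of the log2 fold change was 0.99 on tamoxifen and 0.98 on placebo. Over the genes called on placebo, it was 0.71 on placebo and 0.29 on tamoxifen, and 94.5% of those genes had a smaller difference on tamoxifen, although these genes were chosen by their placebo values. Across all genes tested, tamoxifen and placebo log2FC values were related with a Pearson r of 0.467 and a Spearman rho of 0.421. The points are genes of one model with common dispersion trends, and genes are not independent replicates. The median SE of a log2 fold change was 0.19 in each comparison.

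**Figure D1:**
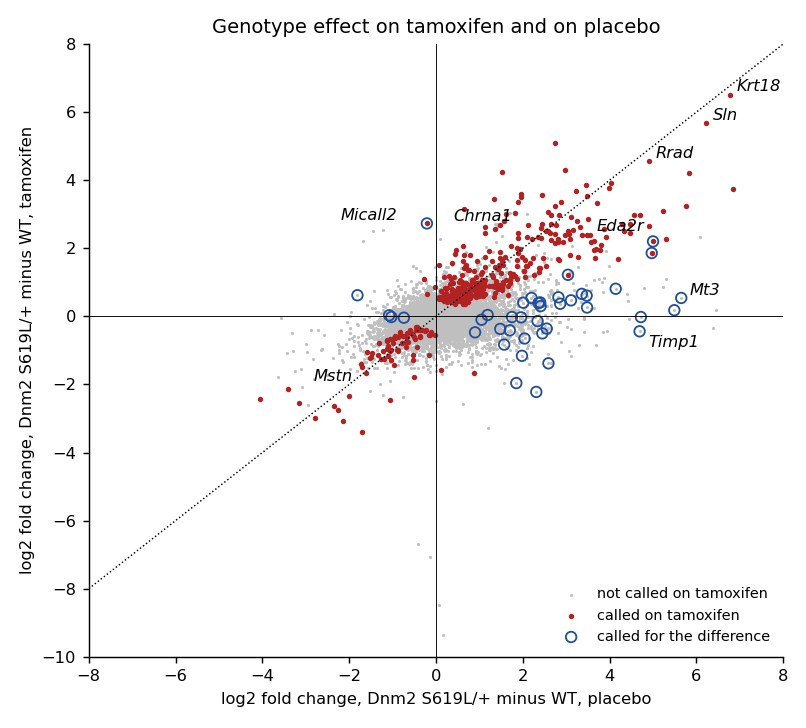
Log2 fold change of *Dnm2* S619L/+ against WT on tamoxifen (vertical axis) and on placebo (horizontal axis) for the 15439 genes tested, 1 point per gene, with the 417 genes called on tamoxifen in red, the genes called for a difference of the genotype effects circled in blue, and the dotted line marking equal differences. Red points lie along the dotted line in the upper right and lower left, *Micall2* lies high at the left of the vertical axis, and most circled genes lie far to the right at a tamoxifen difference near 0.

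The position of each mouse between the placebo groups was measured on the line from the WT placebo mean, set at 0, to the *Dnm2* S619L/+ placebo mean, set at 1, over log2 CPM of all genes tested. WT tamoxifen mice 1 to 4 lay at 0.445, 0.578, 0.427 and 0.529, and *Dnm2* S619L/+ tamoxifen mice 1 to 4 at 0.89, 0.859, 0.907 and 0.634. The groups did not overlap, and mouse 4 was the lowest of the *Dnm2* S619L/+ mice. The means were 0.823 ± 0.127 (SD, n = 4) and 0.495 ± 0.0712 (SD, n = 4), a difference of 0.328, with an exact two-sided permutation p = 0.0286, the smallest that 4 mice against 4 allow.

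*Dnm2* itself was at a similar level in all 8 mice. It was at 61.2, 68.2, 59.3 and 62 CPM in the WT mice and at 69.7, 66.5, 64.5 and 66.8 CPM in the *Dnm2* S619L/+ mice, with a log2FC of 0.09 ± 0.07 (edgeR adjusted p = 0.525) against 0.10 on placebo (adjusted p = 0.344). A point mutation need not change the amount of the transcript, so this level does not check the genotype labels. *Mtm1*, which encodes the phosphoinositide phosphatase myotubularin, had a log2FC of 0.07 ± 0.18 (edgeR adjusted p = 0.874). *Bin1* rose. It was at 351, 339, 447 and 480 CPM in the WT mice and at 695, 518, 533 and 714 CPM in the *Dnm2* S619L/+ mice, without overlap. The log2FC was 0.61 ± 0.15 (edgeR adjusted p = 0.0417) on tamoxifen and 0.81 (adjusted p = 0.00176) on placebo. The *Bin1* call was lost without each of WT mice 1, 2 and 3 and *Dnm2* S619L/+ mice 1 and 4 (adjusted p from 0.0604 to 0.151), among the 8 tamoxifen mice alone (0.109) and with the bone level as a covariate (log2FC 0.43, adjusted p = 0.117), and under 13 of the 28 alternatives in all. It was the only call among 16 dynamin, amphiphysin and myotubularin genes, beside 2.7% of all genes tested.

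At the triad a T-tubule meets 2 cisternae of the sarcoplasmic reticulum, and voltage at the tubule opens calcium release. Of 29 triad and excitation-contraction coupling genes 4 rose and 0 fell on tamoxifen, against 7 and 6 on placebo, and the median log2FC over the list was -0.04 (-0.02 over all genes tested). Over all genes tested, 2.18% rose and 0.518% fell on tamoxifen, and 12.1% rose and 9.81% fell on placebo. *Sln* encodes sarcolipin, a small peptide that uncouples the calcium pump of the sarcoplasmic reticulum, and it had the largest rise among called genes outside the lowest expression range (mean log2 CPM over 1). It was at 1.31, 1.02, 2.02 and 2.17 CPM in the WT mice and at 144, 72, 87.3 and 34.4 CPM in the *Dnm2* S619L/+ mice, so that the lowest mutant was far above the highest WT mouse. Its log2FC was 5.67 ± 0.68 (edgeR adjusted p = 0.000431), and 6.23 on placebo. The other members that rose belong to the voltage sensor or its membrane. *Cacnb1* and *Cacng1*, for the β1 and γ1 subunits of the voltage-gated calcium channel, had log2FC values of 0.70 ± 0.14 (edgeR adjusted p = 0.011) and 0.96 ± 0.24 (adjusted p = 0.0487). *Cav3*, for caveolin 3, rose by 0.74 ± 0.16 (edgeR adjusted p = 0.0227). The genes of the calcium release channel and of the pump itself did not pass, *Ryr1* with a log2FC of -0.07 and *Atp2a1* with -0.08. *Cacng1* overlapped between the groups and lost its call without any tamoxifen mouse other than WT mouse 4 and *Dnm2* S619L/+ mouse 2 (edgeR adjusted p from 0.0702 to 0.159), *Cav3* without WT mouse 1 or 2 or *Dnm2* S619L/+ mouse 1 or 4 (0.0527 to 0.0974) and *Cacnb1* without *Dnm2* S619L/+ mouse 1 (0.0503). Over the 28 alternatives the number of members that rose ranged from 1 to 5. With the bone level as a covariate 2 rose and 2 fell, and the median of the list was -0.19. *Cav3* (log2FC 0.57, edgeR adjusted p = 0.0724) and *Cacng1* (0.67, adjusted p = 0.144) were not called there. Without *Dnm2* S619L/+ mouse 4, 2 members rose and 1 fell. *Rrad*, which is outside the list, encodes a small GTPase that restrains voltage-gated calcium channels. It was at 1.35, 1.56, 0.8 and 1.45 CPM in the WT mice and at 56.4, 24.3, 27.8 and 19.6 CPM in the *Dnm2* S619L/+ mice, a log2FC of 4.55 ± 0.37 (edgeR adjusted p = 2.46e-05) and of 4.90 on placebo. *Sln* and *Rrad* passed the threshold under all 28 alternatives.

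Muscle fibers that lose contact with the nerve, or that have not yet received it, make acetylcholine receptors along their whole length, driven by myogenin, and the fetal receptor contains a γ subunit that the adult receptor lacks. Of 23 genes of receptor subunits, synapse organizers and the response to denervation, 8 rose and 0 fell on tamoxifen, and 10 rose and 0 fell on placebo. Over all genes tested, 2.18% rose on tamoxifen and 12.1% on placebo. The median log2FC of the list was 0.69 on tamoxifen and 0.56 on placebo, and 20 of the 23 were positive on tamoxifen. Over 28 alternatives the number that rose lay between 7 and 11. The sequences upstream of 2 of the receptor subunit genes are shown because they hold more than 1 copy of the E-box CAGCTG, the letters that myogenin and related factors bind. They are the 250 bases before the RefSeq start of *Chrna1* at chr2:73580339-73580588 (minus strand) and of *Chrng* at chr1:87205561-87205810 (plus strand), build GRCm38.p6, with the E-box in capitals.
*Chrna1*: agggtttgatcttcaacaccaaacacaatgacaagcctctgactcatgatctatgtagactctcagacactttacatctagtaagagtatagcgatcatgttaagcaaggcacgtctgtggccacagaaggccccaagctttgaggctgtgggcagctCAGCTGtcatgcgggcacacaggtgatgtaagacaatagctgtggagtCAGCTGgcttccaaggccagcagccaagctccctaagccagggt
*Chrng*: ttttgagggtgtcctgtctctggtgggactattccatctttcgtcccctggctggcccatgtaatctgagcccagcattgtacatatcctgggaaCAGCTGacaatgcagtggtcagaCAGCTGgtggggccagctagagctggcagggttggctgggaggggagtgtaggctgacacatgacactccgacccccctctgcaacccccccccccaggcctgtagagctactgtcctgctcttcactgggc
The motif begins 92 and 44 bases before the start of *Chrna1* and 155 and 132 bases before that of *Chrng*. It is its own reverse complement, so 1 search covers both strands. Of 32851 RefSeq windows of the same length, 4271 (13%) held it and 414 (1.26%) held it at least 2 times. Of the 8 called genes of the list 6 had a window in the table, and 2 of these held the motif. A match of letters is a description of the window, and binding was not measured.

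Genes of receptor subunits were among those that rose. *Chrna1*, for the α subunit, was at 10.2, 4.2, 6.17 and 3.8 CPM in the WT mice and at 40.3, 21.7, 26.4 and 47.1 CPM in the *Dnm2* S619L/+ mice, a log2FC of 2.45 ± 0.34 (edgeR adjusted p = 0.00139). On placebo it was 1.14 (adjusted p = 0.0218), and the difference of 1.31 between the genotype effects did not pass (adjusted p = 0.252). The WT mean was 6.1 CPM on tamoxifen and 22.5 CPM on placebo, a contrast that was not tested here. The fetal γ subunit gene *Chrng* was at 0.221, 0.27, 0.0471 and 0 CPM in the WT mice and at 4.72, 1.28, 1.48 and 0.741 CPM in the *Dnm2* S619L/+ mice (log2FC 3.37 ± 0.66, edgeR adjusted p = 0.0121), and the δ subunit gene *Chrnd* rose by 3.07 ± 0.60 (adjusted p = 0.0122). *Colq*, for the collagen that anchors acetylcholinesterase at the synapse, rose by 1.35 ± 0.27 (edgeR adjusted p = 0.0121). The adult subunit gene *Chrne* had a log2FC of 0.56 (edgeR adjusted p = 0.628) and the organizer gene *Musk* of 0.83 (adjusted p = 0.32), so that neither passed. *Chrnd* lost its call without WT mouse 2 (edgeR adjusted p = 0.0522) and with the bone level as a covariate (0.059), and *Chrng* among the 8 tamoxifen mice alone (adjusted p = 0.0524). The *Chrng* call was also lost among mice with *Xist* above 100 CPM alone.

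Regulators of the same group also rose. *Myog*, the gene of myogenin, was at 2.11, 3.27, 3.67 and 2.8 CPM in the WT mice and at 35.6, 15.6, 13.5 and 29.9 CPM in the *Dnm2* S619L/+ mice, with a log2FC of 2.99 ± 0.43 (edgeR adjusted p = 0.00176) against 2.83 on placebo. *Gadd45a*, a stress gene that rises in denervated and atrophying muscle, was at 16.1, 14.8, 24.6 and 36.4 CPM in the WT mice and at 106, 81.6, 88.7 and 94 CPM in the *Dnm2* S619L/+ mice (log2FC 2.01 ± 0.24, edgeR adjusted p = 0.000369). Every mutant was above every WT mouse for both genes. *Hdac4*, a histone deacetylase that acts upstream of myogenin after denervation, rose by 0.97 ± 0.14 (edgeR adjusted p = 0.00163), and *Kcnn3*, for a calcium-activated potassium channel, by 1.56 ± 0.24 (adjusted p = 0.0027). The calls of *Chrna1*, *Colq*, *Myog*, *Gadd45a*, *Hdac4* and *Kcnn3* held under all 28 alternatives. A pair of other members, named after their values were seen, was called on placebo only. *Runx1*, a transcription factor induced by denervation, had a log2FC of 0.66 (edgeR adjusted p = 0.234) on tamoxifen and 3.36 (adjusted p = 1.48e-05) on placebo, a difference of -2.70 (adjusted p = 0.0248). For *Ncam1*, the neural cell adhesion molecule, the values were 0.03 and 2.37, and the difference of -2.34 did not pass (edgeR adjusted p = 0.117).

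**Figure D2:**
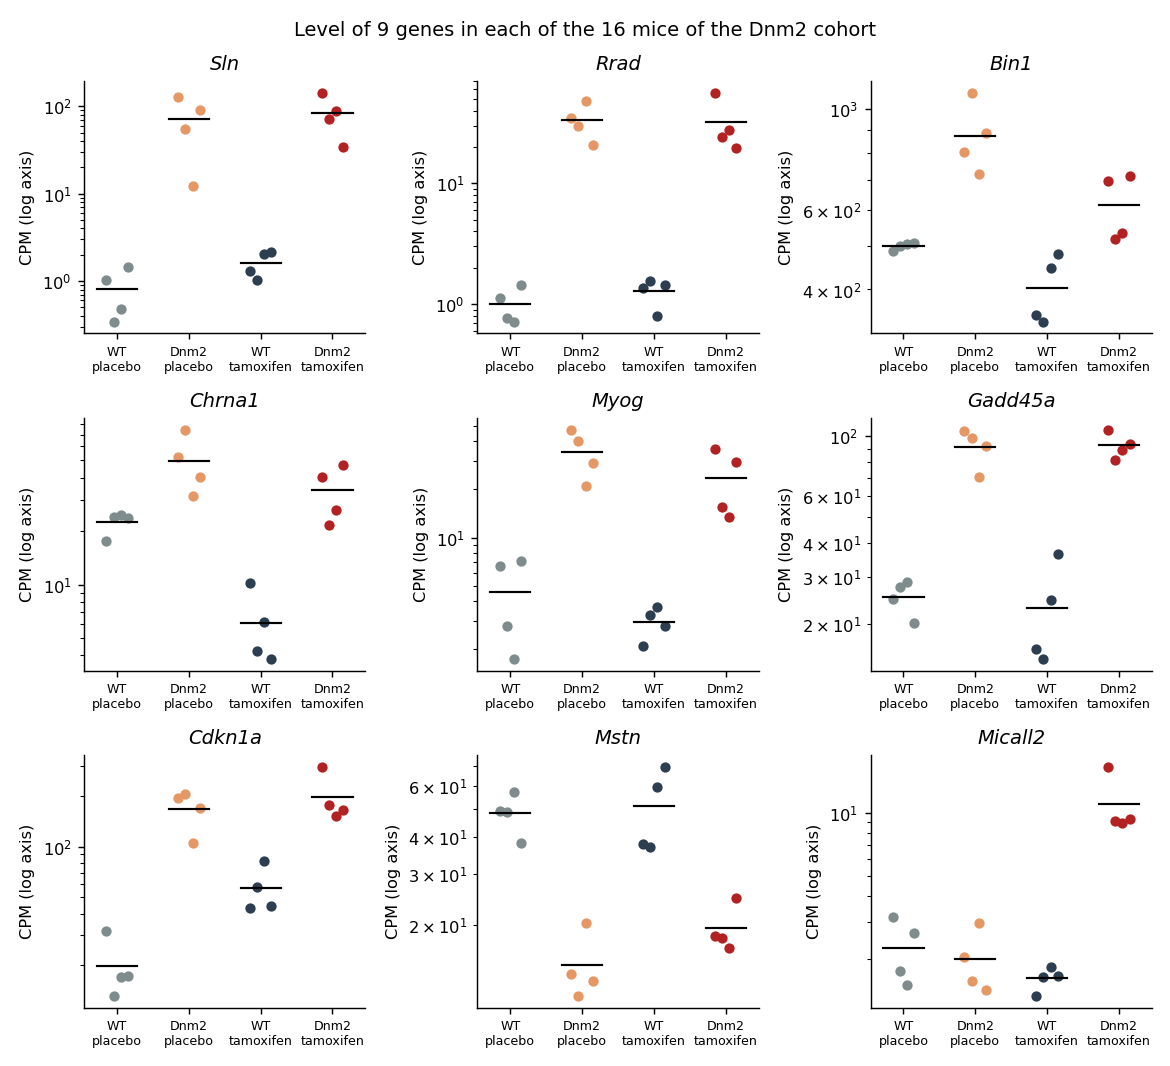
CPM (log axis) of 9 genes in each of the 16 mice of the *Dnm2* cohort, by genotype and treatment, 1 point per mouse, with a line at the group mean. In all panels except *Micall2* the *Dnm2* S619L/+ mice differ from WT mice in the same direction on placebo and on tamoxifen, and *Micall2* is high in the 4 *Dnm2* S619L/+ tamoxifen mice alone.

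Genes of myogenic regulation, embryonic sarcomeres and satellite cells mark muscle that is being built or rebuilt. A list of 24 genes holds these and also keratin genes, *Sox11* and *Cdkn1c*. Of the 24, 7 rose and 0 fell on tamoxifen, against 9 and 1 on placebo, and the medians of the list were 0.72 and 0.66. Over all genes tested, 2.18% rose on tamoxifen and 12.1% on placebo. The 7 were *Krt18*, *Krt8*, *Mymk*, *Mymx*, *Sox11*, *Myf6* and *Cdkn1c*, none of them a gene of the sarcomere, and 17 members were not called. *Krt18* and *Krt8* encode keratins that pair in filaments at the costamere of muscle fibers. *Krt18* was at 0.121, 0.15, 0.0942 and 0.173 CPM in the WT mice and at 22.1, 13, 20.5 and 14.6 CPM in the *Dnm2* S619L/+ mice, a log2FC of 6.51 ± 0.59 (edgeR adjusted p = 5.53e-05) and of 6.78 on placebo. *Krt8* was at 0.0201, 0, 0.0471 and 0 CPM and at 1.72, 0.877, 1.68 and 0.864 CPM in the same order (edgeR adjusted p = 0.00618), and no fold is given because the WT values stand for single reads. Both keratins were near 0 in every WT mouse and present in every mutant. The fusion of myoblasts needs the membrane proteins myomaker and myomixer. Myomaker, *Mymk*, was at 0.141, 0.36, 0.377 and 0.345 CPM in the WT mice and at 6.62, 1.51, 1.77 and 2.19 CPM in the *Dnm2* S619L/+ mice (log2FC 3.14 ± 0.70, edgeR adjusted p = 0.0246), with a mutant mouse 1 that was far above the others. Its placebo difference was 0.65 (edgeR adjusted p = 0.482), and the difference of 2.49 between the effects did not pass (adjusted p = 0.272). Myomixer, *Mymx*, was at 0.0402, 0.03, 0 and 0 CPM in the WT mice and at 2.42, 0.279, 1.44 and 0.216 CPM in the *Dnm2* S619L/+ mice (edgeR adjusted p = 0.00904). The *Mymx* call was lost among mice with *Xist* above 100 CPM alone (edgeR adjusted p = 0.064). *Sox11*, a transcription factor of developing tissues, rose by 3.25 ± 0.38 (edgeR adjusted p = 0.000313) and by 5.77 on placebo, *Myf6*, a late myogenic factor, by 0.73 ± 0.19 (adjusted p = 0.0484), and *Cdkn1c*, an inhibitor of the cell cycle, by 1.11 ± 0.28 (adjusted p = 0.0445).

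The number of these genes that rose ran from 2 to 10 over the 28 alternatives. *Krt18*, *Krt8* and *Sox11* held under the 27 of them that tested each gene. *Mymk* lost its call without any of WT mice 1, 2 and 3 and without *Dnm2* S619L/+ mouse 1 (edgeR adjusted p from 0.0604 to 0.103) and with *Xist* as a covariate (0.0537), and *Cdkn1c* and *Myf6* without any tamoxifen mouse other than WT mouse 4 (adjusted p up to 0.169 and 0.159). With the bone level as a covariate *Cdkn1c* (edgeR adjusted p = 0.0827) and *Myf6* (0.134) were not called either, and with *Xist* as a covariate *Cdkn1c* was not (0.0551).

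Fiber-type genes differ between slow and fast fibers in the isoforms of myosin and troponin. Of 11 slow-fiber genes 1 rose on tamoxifen and 5 rose and 1 fell on placebo, and all 11 were positive on tamoxifen with a median log2FC of 0.62. The share of all genes called was 2.7% on tamoxifen and 21.9% on placebo. *Tnni1*, for slow troponin I, was at 3.52, 1.29, 2.4 and 3.24 CPM in the WT mice and at 16.2, 7.97, 7.9 and 33.8 CPM in the *Dnm2* S619L/+ mice (log2FC 2.62 ± 0.66, edgeR adjusted p = 0.0457), a call lost without any of the WT mice or *Dnm2* S619L/+ mouse 1 or 4 (adjusted p from 0.0674 to 0.146), with *Xist* as a covariate (0.0735) and with the bone level as a covariate (0.21). The slow myosin gene *Myh7* had a log2FC of 1.30 (edgeR adjusted p = 0.4). None of 14 fast-fiber genes passed, against 3 that fell on placebo. No fast-fiber gene was called for the difference of the genotype effects. *Myh4*, for the fastest myosin of the mouse, was at 24800, 21200, 26600 and 24300 CPM in the WT mice and at 16000, 8350, 15000 and 21200 CPM in the *Dnm2* S619L/+ mice. These groups met at 21200 CPM, and the log2FC of -0.68 ± 0.24 gave an edgeR adjusted p of 0.143. With the bone level as a covariate *Myh4* was called (log2FC -0.97, edgeR adjusted p = 0.0336).

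Heat shock proteins refold or hold damaged proteins. Of 22 such genes and chaperones 5 rose and 0 fell on tamoxifen, against 10 and 1 on placebo, with medians of 0.46 and 0.51. Over all genes tested, 2.18% rose on tamoxifen and 12.1% on placebo. *Hspb8*, a small heat shock protein of chaperone-assisted autophagy in muscle, was at 189, 191, 242 and 242 CPM in the WT mice and at 713, 473, 493 and 562 CPM in the *Dnm2* S619L/+ mice, a log2FC of 1.38 ± 0.17 (edgeR adjusted p = 0.000431) and of 1.43 on placebo. The other small heat shock genes that rose were *Hspb6*, by 0.75 ± 0.18 (edgeR adjusted p = 0.0381), and *Hspb1*, by 1.49 ± 0.36 (adjusted p = 0.0401). *Hspa1a* and *Hspa1b* are near-identical copies whose reads cannot be told apart with certainty, with log2FC values of 1.75 (edgeR adjusted p = 0.0256) and 1.66 (adjusted p = 0.0381). *Hspb1* and *Hspa1b* were named after their values were seen. Only *Hspb8* of the 5 was called under all 28 alternatives, under which the number that rose ran from 1 to 9. Without single tamoxifen mice the calls were lost for *Hspb6* (WT mice 1 to 3, *Dnm2* S619L/+ mice 1, 3 and 4, edgeR adjusted p up to 0.13), *Hspb1* (WT mice 1 to 3, *Dnm2* S619L/+ mice 1 and 4, up to 0.132) and *Hspa1b* (all WT mice, *Dnm2* S619L/+ mice 1 and 3, up to 0.156). *Hspa1a* lost its call without WT mice 1, 2 or 3 or *Dnm2* S619L/+ mouse 1 (edgeR adjusted p from 0.0697 to 0.109). With *Xist* as a covariate, and likewise with the bone level as a covariate, 1 of the 22 genes rose, and *Hspb6*, *Hspb1*, *Hspa1a* and *Hspa1b* were not called in either (edgeR adjusted p from 0.0552 to 0.125).

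Of 21 target genes of p53, the transcription factor that answers DNA damage, 3 rose and 0 fell on tamoxifen, against 5 and 1 on placebo, and all 3 held under the 28 alternatives. The share of all genes called was 2.7% on tamoxifen and 21.9% on placebo. *Eda2r*, the receptor of ectodysplasin A2, was at 10.7, 5.94, 9.46 and 7.73 CPM in the WT mice and at 67.2, 37.3, 61.7 and 81.5 CPM in the *Dnm2* S619L/+ mice (log2FC 2.86 ± 0.29, edgeR adjusted p = 0.000147, and 3.50 on placebo). *Cdkn1a*, the gene of the cell cycle inhibitor p21, was at 43.5, 57.6, 82.4 and 44.6 CPM in the WT mice and at 297, 177, 152 and 164 CPM in the *Dnm2* S619L/+ mice (log2FC 1.79 ± 0.31, edgeR adjusted p = 0.00546). The groups were apart for both genes, and the *Cdkn1a* WT mean was 57 CPM on tamoxifen and 19.7 CPM on placebo. *Mdm2*, the ubiquitin ligase that degrades p53, rose by 0.55 ± 0.10 (edgeR adjusted p = 0.00751). *Eda2r* and *Mdm2* are also the 2 called members of a list of 16 atrophy genes, and the median of the p53 targets was 0.17.

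Myostatin, a factor secreted by muscle that limits its growth, fell. Its gene *Mstn* was at 37.9, 37, 59.5 and 69.7 CPM in the WT mice and at 18.3, 18, 16.7 and 24.8 CPM in the *Dnm2* S619L/+ mice, a log2FC of -1.39 ± 0.22 (edgeR adjusted p = 0.00357) and of -1.73 on placebo. It was the 1 called gene of 15 in the list of myostatin, activin and follistatin genes, of which 4 rose and 2 fell on placebo. The share of all genes called was 2.7% on tamoxifen and 21.9% on placebo. *Inha*, the inhibin α gene outside that list, was at 8.36, 9.66, 12.9 and 22 CPM in the WT mice and at 6.9, 5.38, 6.06 and 5.31 CPM in the *Dnm2* S619L/+ mice. The *Inha* call (log2FC -1.15 ± 0.30, edgeR adjusted p = 0.0494) was lost without any tamoxifen mouse other than WT mouse 1 (adjusted p from 0.056 to 0.109), with *Xist* as a covariate (0.0922) and with the bone level as a covariate (0.104). *Fst*, for follistatin, which binds and blocks myostatin, was at 6.58, 7.17, 6.97 and 7.18 CPM in the WT mice and at 11.3, 13, 12 and 4.94 CPM in the *Dnm2* S619L/+ mice. Mouse 4 was below all WT mice for *Fst* and the other 3 mutants above them, and the log2FC was 0.56 ± 0.30 (edgeR adjusted p = 0.343). On placebo it was 2.82, and the difference of -2.26 passed (edgeR adjusted p = 0.047).

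Genes of energy metabolism are read here against the 2.7% of all genes called on tamoxifen and the 21.9% called on placebo. Of 28 glycolysis and glycogen genes 0 rose and 1 fell on tamoxifen, against 1 and 16 on placebo, and of 29 fatty acid genes none passed on tamoxifen, against 1 that rose and 12 that fell on placebo. The test of the difference between the genotype effects called 0 of the glycolysis and glycogen genes and 2 of the fatty acid genes. It called 0.259% of all genes tested. The 1 that fell was *Phka1*, for the muscle regulatory subunit of the kinase that activates glycogen breakdown. It was at 600, 512, 759 and 724 CPM in the WT mice and at 319, 282, 286 and 430 CPM in the *Dnm2* S619L/+ mice, a log2FC of -0.98 ± 0.17 (edgeR adjusted p = 0.00583) and of -1.04 on placebo. The *Phka1* call was lost among mice with *Xist* above 100 CPM alone (edgeR adjusted p = 0.0633). Of 77 nuclear genes of the respiratory chain none passed, and 70 were positive with a median of 0.28, against a median of 0.00 on placebo. No nuclear respiratory chain gene and no mitochondrial DNA gene was called for the difference of the genotype effects. Among 8 protein-coding genes of mitochondrial DNA that could be tested 1 fell on tamoxifen and 7 on placebo, with medians of -0.25 and -0.91. The 1 was *mt-Nd6*, a subunit of complex I and the protein-coding gene on the opposite strand to the others, at 1970, 241, 631 and 641 CPM in the WT mice and at 128, 86.2, 119 and 79.6 CPM in the *Dnm2* S619L/+ mice. WT mouse 1 was far above the others, and the call (log2FC -3.08 ± 0.76, edgeR adjusted p = 0.0434) was lost without WT mouse 1 or 3 or any *Dnm2* S619L/+ mouse (adjusted p from 0.0665 to 0.159), with *Xist* as a covariate (0.0537) and with the bone level as a covariate (0.16).

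The share of all reads on mitochondrial DNA genes was 19, 17.7, 17.6 and 16.5% in the WT tamoxifen mice and 14.8, 16.5, 14.7 and 15% in the *Dnm2* S619L/+ tamoxifen mice. These groups met at 16.5% after rounding, with means of 17.7 ± 1% and 15.2 ± 0.858% (SD, n = 4 each). The difference was -2.49 percentage points (exact two-sided permutation p = 0.0286), and -8.06 points on placebo (14.9% against 22.9%, exact permutation p = 0.0286).

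**Figure D3:**
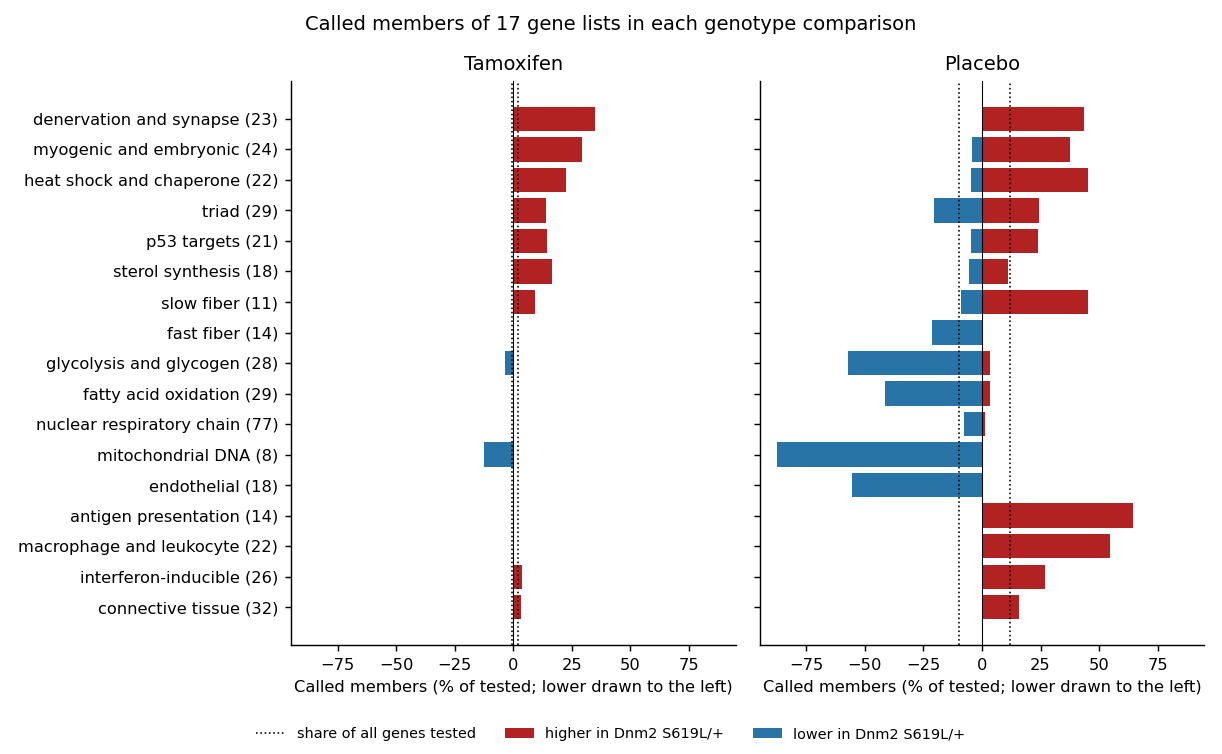
Called members of 17 gene lists as a percentage of the members tested (number in parentheses), in the tamoxifen (left) and the placebo (right) genotype comparison, with genes lower in *Dnm2* S619L/+ drawn to the left of 0 and dotted lines at the share of all genes called. The denervation list has 8 of 23 members higher on tamoxifen and 10 of 23 on placebo, while antigen presentation has 0 and 9 of 14. No antigen presentation gene was called for the difference of the genotype effects.

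Tests of whether the genotype effect itself differed between tamoxifen and placebo passed for 40 genes (0.259%), 5 with a more positive and 35 with a more negative difference on tamoxifen. Of these, 39 were called on placebo and 4 on tamoxifen, and the difference was larger in size on placebo for 38. The count ranged from 1 without WT tamoxifen mouse 1 to 293 without *Dnm2* S619L/+ placebo mouse 3, so the number of such genes depended on single mice. Without WT tamoxifen mouse 2, 1 gene was called with a more positive and 1 with a more negative difference. Most genes named from this test therefore lost their call for the difference in that fit. *Micall2*, for a protein that links actin with vesicle traffic to cell junctions, was the one called on tamoxifen among those of the 40 named here. It was at 1.33, 1.65, 1.84 and 1.66 CPM in the WT mice and at 16.6, 9.17, 8.95 and 9.35 CPM in the *Dnm2* S619L/+ mice, with means of 2.27 and 2.01 CPM in WT and *Dnm2* S619L/+ mice on placebo. Its log2FC was 2.73 ± 0.29 (edgeR adjusted p = 0.000147) on tamoxifen and -0.21 (adjusted p = 0.614) on placebo, a difference of 2.95 (95% interval 2.16 to 3.73, adjusted p = 0.0115). The call on tamoxifen held under all 28 alternatives. The call for the difference was lost without WT tamoxifen mouse 1, where the 1 gene called for a difference had a more negative one on tamoxifen.

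Other genes named from this test were called between the genotypes on placebo and not on tamoxifen. *Mt3*, a metallothionein that binds zinc and copper, had means of 3.87 ± 2.25 CPM in WT and 5.66 ± 2.18 CPM in *Dnm2* S619L/+ mice on tamoxifen and of 0.513 ± 0.173 and 30.6 ± 15.8 CPM on placebo (SD, n = 4 each). The log2FC values were 0.54 and 5.65, and their difference was -5.11 (edgeR adjusted p = 0.0115). *Timp1*, an inhibitor of matrix metalloproteinases, had log2FC values of -0.44 and 4.69, with WT means of 37.8 CPM on tamoxifen and 0.736 CPM on placebo and *Dnm2* S619L/+ means of 27.9 and 21.6 CPM. Like *Timp1*, *S100a4*, *Anxa8* and *Fam171b* had higher WT means on tamoxifen than on placebo, with differences of the log2FC values of -3.33, -5.31 and -3.22 (edgeR adjusted p = 0.0306, 0.039 and 0.0248). The bone marker level moved with treatment in the same mice, as given above, and its part in these differences was not tested for single genes beyond the tamoxifen fold changes in the alternative with that level as a covariate.

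The other named genes with a more positive difference on tamoxifen were lower in the mutants on placebo. *Lpl*, the lipase that releases fatty acids from lipoproteins, was at 383 ± 60.8 CPM in WT and 392 ± 53.9 CPM in *Dnm2* S619L/+ mice on tamoxifen and at 796 ± 40.4 and 377 ± 72.8 CPM on placebo (SD, n = 4 each). The placebo WT mice were the group that stood apart, and the difference of the log2FC values was 1.11 (0.03 against -1.08, edgeR adjusted p = 0.047). *Etfdh*, which passes electrons from fatty acid oxidation to ubiquinone, had means of 170 and 165 CPM on tamoxifen and of 263 and 157 CPM on placebo in WT and *Dnm2* S619L/+ mice, a difference of 0.70 (edgeR adjusted p = 0.047). *Ccdc9b*, a coiled-coil gene, followed the same order with a difference of 1.01 (edgeR adjusted p = 0.047). Without WT tamoxifen mouse 1 no gene was called with a more positive difference, so *Lpl*, *Etfdh* and *Ccdc9b* lost this call.

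**Figure D4:**
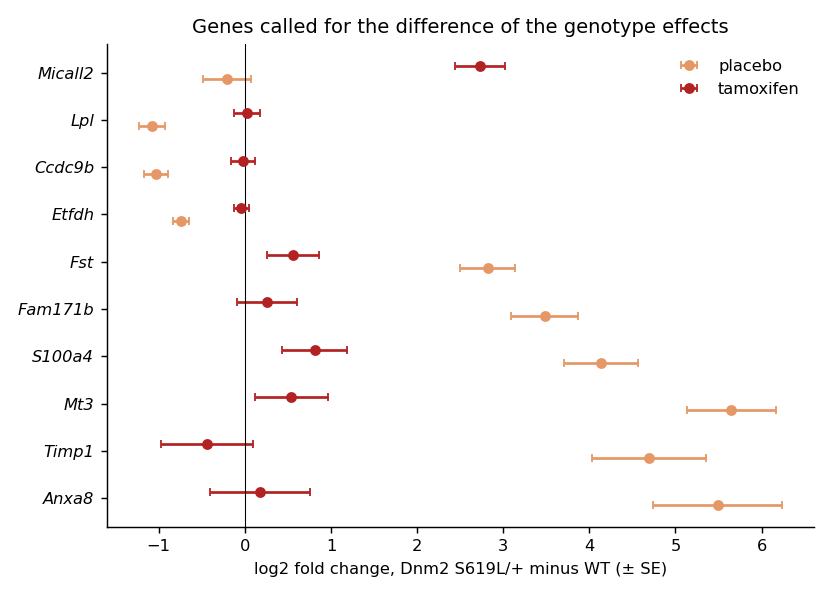
Log2 fold change of *Dnm2* S619L/+ against WT (± SE) on placebo (orange) and on tamoxifen (red) for 10 genes called for the difference of the genotype effects, chosen as the 9 with the most positive or negative difference at a mean log2 CPM above 1, and *Fst*. *Micall2* is at 2.73 on tamoxifen and -0.21 on placebo, and the tamoxifen values of the other 9 genes lie between -0.44 (*Timp1*) and 0.81 (*S100a4*).

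The counts for immune, connective tissue and vessel genes stand beside the same 2.7% and 21.9% of all genes called. None of 14 antigen presentation genes, 22 macrophage and leukocyte genes and 18 endothelial genes passed, whereas 9, 12 and 0 rose and 0, 0 and 10 fell on placebo. None of these genes was called for the difference of the genotype effects. The medians on tamoxifen were 0.20, -0.14 and -0.05, and on placebo 1.75, 1.37 and -0.79. In bulk muscle, fewer cells of a type and less RNA per cell cannot be told apart. *Cxcl10*, an interferon-induced chemokine and the 1 called gene of 26 interferon-inducible genes, was at 0.261, 0.24, 0.235 and 0.0345 CPM in the WT mice and at 0.828, 1.67, 2.17 and 1.51 CPM in the *Dnm2* S619L/+ mice (log2FC 2.65 ± 0.49, edgeR adjusted p = 0.00778). The *Cxcl10* call was lost among mice with *Xist* above 100 CPM alone (edgeR adjusted p = 0.0614). *Cilp*, a matrix protein of cartilage that is also made in stressed heart and muscle, was the 1 called gene of 32 in connective tissue, a list whose median was -0.60 on tamoxifen and 0.73 on placebo. It was at 66, 86.7, 61.6 and 65.7 CPM in the WT mice and at 585, 453, 508 and 822 CPM in the *Dnm2* S619L/+ mice, with a log2FC of 3.08 ± 0.42 (edgeR adjusted p = 0.00116) and of 5.24 on placebo. All mutants were above all WT mice.

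The summed level of the bone list differed by -1070 CPM between mutant and WT mice, that of the osteoclast list by -533 CPM and that of the cartilage list by -207 CPM, with exact two-sided permutation p of 0.229, 0.171 and 0.2. Single mice moved these values, to -591 CPM for bone and -125 CPM for cartilage without *Dnm2* S619L/+ mouse 4, and to -697 CPM for bone and -283 CPM for osteoclasts without WT mouse 2. None of 18 bone genes passed (median -0.52), all 13 osteoclast genes were negative (median -1.12) with 1 called, and 1 of 10 tendon genes fell (median -0.81). Of all genes tested, 2.7% were called. The osteoclast gene called was *Calcr*, the calcitonin receptor, at 2.05, 2.79, 1.22 and 1.21 CPM in the WT mice and at 0.184, 0.518, 0.762 and 0.0926 CPM in the *Dnm2* S619L/+ mice (log2FC -2.12 ± 0.46, edgeR adjusted p = 0.0206). Calcitonin receptor is also known from quiescent satellite cells. The tendon gene was *Chodl*, a membrane lectin, at 29.6, 35.1, 33.6 and 36.7 CPM in the WT mice and at 11.2, 15.1, 11.5 and 4.54 CPM in the *Dnm2* S619L/+ mice (log2FC -1.67 ± 0.40, edgeR adjusted p = 0.0387), a call lost without any tamoxifen mouse other than *Dnm2* S619L/+ mouse 2 (adjusted p from 0.0565 to 0.114) and with the bone level as a covariate (0.109). A pair of 13 cartilage genes rose against a list median of -0.38. *Col10a1*, for the collagen of growth plate cartilage, was at 0.121, 0.12, 0 and 0.138 CPM in the WT mice and at 3.19, 0.598, 1.73 and 0.772 CPM in the *Dnm2* S619L/+ mice (log2FC 3.36 ± 0.57, edgeR adjusted p = 0.00418), and *Sox9*, the cartilage transcription factor, rose by 1.1 ± 0.24 (adjusted p = 0.0228). The summed cartilage level was on the lower side in the mutants (279 ± 199 against 486 ± 180 CPM, SD, n = 4 each, exact two-sided permutation p = 0.2). *Sox9* lost its call without WT mouse 1 or 3 or *Dnm2* S619L/+ mouse 1 (edgeR adjusted p = 0.0948, 0.0643 and 0.103) and with the bone level as a covariate (0.0518), and *Calcr* without WT mouse 1 or 2 or *Dnm2* S619L/+ mouse 1 (0.065, 0.0753 and 0.0927).

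Summed levels of the 10 marker lists of other cell types were compared by exact two-sided permutation tests and adjusted over the 10, and none passed. With 4 mice against 4 the smallest p is 0.0286, so that 1 list alone could reach no lower than 0.286 after the adjustment. The lowest unadjusted p was 0.0286, for the adipocyte list, at 1980 ± 221 CPM in *Dnm2* S619L/+ and 3870 ± 932 CPM in WT mice (SD, n = 4 each, adjusted p = 0.286 for the exact test). Most of that sum was *Car3*, carbonic anhydrase 3, which adipocytes and slow muscle fibers share, at 3160, 2980, 3340 and 4970 CPM in the WT mice and at 1680, 1500, 1890 and 1880 CPM in the *Dnm2* S619L/+ mice (log2FC -1.06 ± 0.22, edgeR adjusted p = 0.0175). Of the 9 adipocyte genes tested 6 were positive, and the list median was 0.59. *Car3* lost its call without *Dnm2* S619L/+ mouse 1 (edgeR adjusted p = 0.0679).

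**Figure D5:**
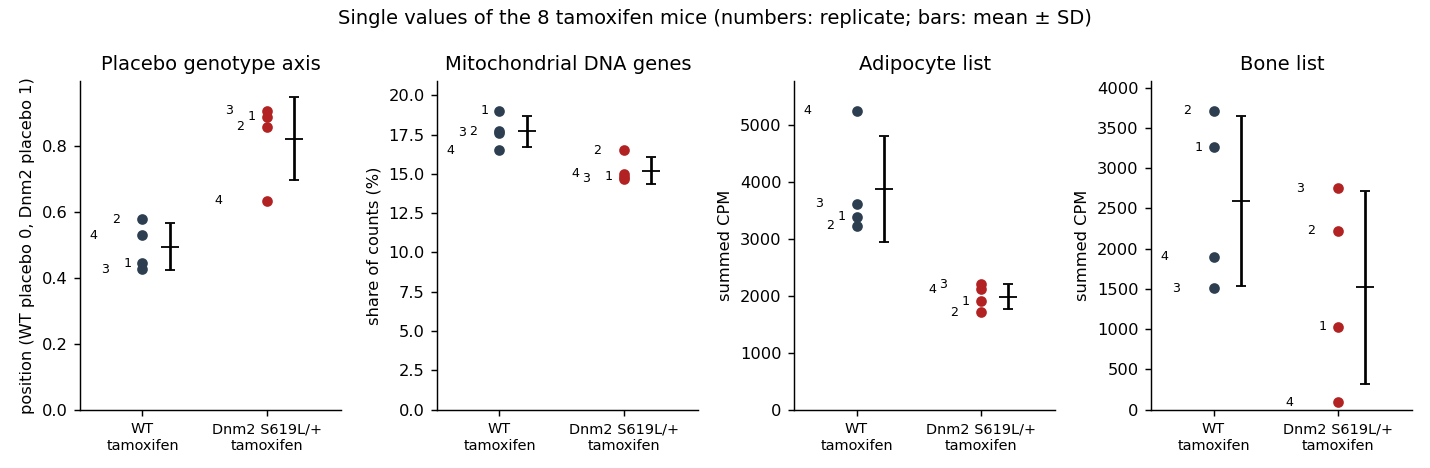
Position on the placebo genotype axis, share of reads on mitochondrial DNA genes (%), summed CPM of the adipocyte list and summed CPM of the bone list in the 4 WT and 4 *Dnm2* S619L/+ tamoxifen mice, 1 point per mouse with its number and the mean ± SD beside it. The axis groups are apart at 0.823 against 0.495, and *Dnm2* S619L/+ mouse 4 is lowest of its group on the axis (0.634) and lowest of all 8 on the bone list (90.4 CPM).

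Further genes were named for the size of their difference or as leading members of smaller lists. *Igfbp2*, for a binding protein of insulin-like growth factors, was at 0.121, 0.3, 0.235 and 0.104 CPM in the WT mice and at 19.3, 3.75, 7.62 and 1.98 CPM in the *Dnm2* S619L/+ mice, a log2FC of 5.08 ± 0.75 (edgeR adjusted p = 0.00212) and of 2.74 on placebo. *Aldh3a1*, an aldehyde dehydrogenase, was at 3.42, 3.81, 2.12 and 2.66 CPM in the WT mice and at 76.1, 21.6, 36.6 and 8.09 CPM in the *Dnm2* S619L/+ mice (log2FC 3.53 ± 0.66, edgeR adjusted p = 0.00904). The *Aldh3a1* call was lost among mice with *Xist* above 100 CPM alone (edgeR adjusted p = 0.0921). The order of the mutants, mouse 1 highest and mouse 4 lowest, was the same for *Igfbp2* and *Aldh3a1* and also for the unannotated transcript *A930016O22Rik* (3.6 ± 0.83, edgeR adjusted p = 0.0298) and for *Ube2c*, a ubiquitin-conjugating enzyme of mitosis (3.04 ± 0.75, adjusted p = 0.0434). *Ube2c* lost its call without any tamoxifen mouse other than *Dnm2* S619L/+ mouse 4 (edgeR adjusted p from 0.0519 to 0.166), and *A930016O22Rik* without WT mouse 1, 2 or 3 or *Dnm2* S619L/+ mouse 1 or 3 (0.0561 to 0.115). *Atf3*, a stress-induced transcription factor, rested largely on 1 mouse, at 3.02, 8.25, 5.7 and 5.32 CPM in the WT mice and at 17.4, 10.2, 11.8 and 139 CPM in the *Dnm2* S619L/+ mice. Its log2FC was 3.0 ± 0.72 (edgeR adjusted p = 0.0387), and 1.24 (adjusted p = 0.0863) without *Dnm2* S619L/+ mouse 4, and the call was also lost without each WT mouse (adjusted p from 0.0692 to 0.133). With *Xist* and with the bone level as a covariate, *Atf3* (edgeR adjusted p = 0.073 and 0.305), *Ube2c* (0.0982 and 0.0617) and *A930016O22Rik* (0.0784 and 0.0521) were not called. *Oaz2*, an antizyme that limits polyamine synthesis, rose by 0.45 ± 0.08 (edgeR adjusted p = 0.0065) and was the 1 called gene of 10 in its list, beside 2.7% of all genes tested.

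Of 18 sterol synthesis genes 3 rose and 0 fell on tamoxifen, against 2 and 1 on placebo, while the list median was -0.05. The share of all genes called was 2.7% on tamoxifen and 21.9% on placebo. *Mvd*, an enzyme of the mevalonate pathway, was at 3.34, 3.15, 3.06 and 3.66 CPM in the WT mice and at 8.52, 6.9, 5.94 and 5.49 CPM in the *Dnm2* S619L/+ mice (log2FC 1.01 ± 0.23, edgeR adjusted p = 0.0289). *Srebf2*, the transcription factor of the pathway, rose by 0.62 ± 0.16 (edgeR adjusted p = 0.0436). The number that rose lay between 0 and 3 over the 28 alternatives, and *Mvd* lost its call without each of WT mice 1, 2 and 3 and *Dnm2* S619L/+ mice 1 and 2 (edgeR adjusted p from 0.0534 to 0.117). *Srebf2* lost its call without any tamoxifen mouse other than *Dnm2* S619L/+ mouse 4 (edgeR adjusted p up to 0.172). With *Xist* as a covariate 0 of the 18 genes rose, *Mvd* being at 0.99 (edgeR adjusted p = 0.0513) and *Srebf2* at 0.59 (adjusted p = 0.0751).

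Among the largest falls were transcripts with little annotation. *B230312C02Rik* was at 14.5, 18, 16.1 and 19.1 CPM in the WT mice and at 2.42, 1.08, 2.33 and 2.47 CPM in the *Dnm2* S619L/+ mice, a log2FC of -2.98 ± 0.30 (edgeR adjusted p = 9.93e-05) and of -2.78 on placebo. *B230217O12Rik* was at 5.43, 3.93, 7.44 and 5.63 CPM and at 1.56, 1.47, 1.28 and 1.94 CPM in the same order (log2FC -1.79 ± 0.20, edgeR adjusted p = 0.000197). Both were far lower in every mutant. *Gdap1*, a gene of mitochondrial fission mutated in Charcot-Marie-Tooth neuropathy, had a log2FC of -1.49 ± 0.30 (edgeR adjusted p = 0.0124), *Pla2g7*, for a phospholipase that degrades platelet-activating factor, of -1.25 ± 0.23 (adjusted p = 0.00751), *Gm49477* of -1.24 ± 0.19 (adjusted p = 0.00238) and *Lrtm1* of -1.2 ± 0.29 (adjusted p = 0.0394). *Gdap1* lost its call without *Dnm2* S619L/+ mouse 1 (edgeR adjusted p = 0.0588) and *Lrtm1* without WT mouse 1, 2 or 3 or *Dnm2* S619L/+ mouse 1, 3 or 4 (0.0695 to 0.12), and *Lrtm1* also with *Xist* (0.0549) or the bone level (0.118) as a covariate. For *B230217O12Rik* the placebo value was -0.50 (edgeR adjusted p = 0.0909), and for *Chodl* it was 0.88 (adjusted p = 0.121), but neither difference between the genotype effects passed (-1.29, adjusted p = 0.0846, and -2.56, adjusted p = 0.0787).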

How the data were processed

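Counts are whole reads per Ensembl gene as the authors deposited them, not normalized, from stranded polyA TruSeq libraries made from 300 ng of RNA. The submitters' processing notes name bcl2fastq 2.20.0.422, cutadapt 1.10, Bowtie 1.2.2, STAR 2.5.3, HTSeq 0.6.1p1 and mm39, with no role given. GENCODE M21 named 52083 of 55416 identifiers, and upstream sequences are from RefSeq, build GRCm38.p6. No pair of libraries within either tamoxifen group agreed within sampling noise (smallest chi-square per gene 19.8), and other pairs were not compared. The table of the *Bin1* cohort was not used here.

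The 16 mice of the *Dnm2* cohort entered 1 robust quasi-likelihood fit in edgeR 4.0.16 (R 4.3.3), after filterByExpr and TMM scaling. Contrasts were genotype on tamoxifen, genotype on placebo, and their difference. Calls are at a Benjamini-Hochberg adjusted p under 0.05, and log2FC has a prior count of 2. An SE is the size of the log2FC over the root of its F, and that of the difference is the root of the summed squares. Single values per mouse were compared by exact two-sided permutation tests. The scripts were tested on simulated data.

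The comparison and the 44 gene lists were chosen with earlier results of these data known. Named genes are *Dnm2*, *Bin1* and *Mtm1*, the 10 largest rises and falls among calls without overlap at a mean log2 CPM over 1, the 3 genes of lowest p in each list, up to 5 genes each way for the difference, sex-linked genes, and called members of the triad, denervation, regeneration, slow and fast lists. *Hspb1*, *Hspa1b*, *Runx1*, *Ncam1*, *Ryr1*, *Atp2a1*, *Chrne*, *Musk* and *Myh7* were named after their values were seen, and 1 gene that the rule names is not reported here.

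Alternatives were RLE size factors, DESeq2 1.42.0, no filter, the filter of the study (over 10 reads in at least 90% of mice), only the 8 mice, a replicate block, *Xist* or the bone marker level as a covariate, only mice with *Xist* above 100 CPM, thinning, library sizes without mitochondrial reads, tests without skeletal genes, and leaving out each mouse.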

Additional observations from a re-analysis of the deposited data

Results flagged for a closer look

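Of 180 groups of 4 tamoxifen mice examined (the named genes and the single values per mouse), 11 held a mouse whose gap to the nearest other mouse was too large a part of the group's range by Dixon's 95% criterion, and chance flags about 1 group in 20. *Dnm2* S619L/+ mouse 1 was highest for *Cdkn1c* (68.8 CPM, the others 37.3 to 40.8), *Mymk* (6.62 CPM, the others 1.51 to 2.19), *Micall2* (16.6 CPM, the others 8.95 to 9.35) and *Mt3* (8.89 CPM, the others 4.32 to 5.05). *Dnm2* S619L/+ mouse 4 was highest for *Atf3* (139 CPM, the others 10.2 to 17.4) and for *Ryr1* (3130 CPM, the others 1890 to 2030). *Dnm2* S619L/+ mouse 2 was lowest for *B230312C02Rik* (1.08 CPM, the others 2.33 to 2.47) and highest for the share of reads on mitochondrial DNA genes (16.5%). Among WT mice, mouse 1 was lowest for *Mymk* (0.141 CPM), mouse 3 for *Col10a1* (0 CPM, the others 0.12 to 0.138) and mouse 4 for *Cxcl10* (0.0345 CPM, the others 0.235 to 0.261).

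The genotype effects on tamoxifen and on placebo differed, by edgeR's test of the difference itself, for 11 of the named genes. The log2 fold change on tamoxifen minus that on placebo was -5.31 for *Anxa8*, -5.13 for *Timp1*, -5.11 for *Mt3*, -3.33 for *S100a4*, -3.22 for *Fam171b*, -2.70 for *Runx1* and -2.26 for *Fst*. It was 2.95 for *Micall2*, 1.11 for *Lpl*, 1.01 for *Ccdc9b* and 0.70 for *Etfdh*. Genes were picked for this test's largest values, so the sizes are a description.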

How the results depend on the processing

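Of the 417 genes called on tamoxifen, DESeq2 called all 417 among 937, and 866 were called among mice with *Xist* above 100 CPM alone, while leaving out 1 mouse gave 182 to 623. The 3382 placebo calls became 1124 among mice with *Xist* above 100 CPM and 2034 to 3953 with 1 mouse left out. With that *Xist* limit only mice 1 and 4 of each placebo group and WT tamoxifen mice 1 and 2 remained beside the *Dnm2* S619L/+ tamoxifen mice. Calls shared by both comparisons (336) became 683 with DESeq2 and 161 to 480 with 1 mouse left out. The 40 genes called for the difference became 20 with RLE size factors, 16 with the stricter filter of the study, 327 with DESeq2, 126 with *Xist* as a covariate, 14 after thinning to the smallest library, 108 with the bone marker level as a covariate and 1 to 293 with 1 mouse left out. The alternatives with only mice above 100 CPM of *Xist* and with the bone level were chosen after seeing the data. The position on the placebo axis differed by 0.277 to 0.391 and the mitochondrial share by -2.91 to -2.06 points with 1 mouse left out (exact permutation p of 0.0286 or 0.0571), and the tendon difference was -744 to -401 CPM (exact permutation p = 0.0286 without WT mouse 3). The cause of the other changes was not tested.

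Same-numbered mice did not deviate together (correlations 0.0255, 0.335, -0.325 and 0.272 for numbers 1 to 4), and the best WT partner of mutants 1 to 4 was mouse 1, 2, 2 and 3. A fit with the replicate block called 364 genes on tamoxifen and 10 for the difference.

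Of 56 called genes named in the text, 24 kept their call under every alternative that tested them and 32 lost it under 1 or more. Of the 24, *Krt18*, *Krt8*, *Sox11* and *Igfbp2* were tested under 27 of the 28 alternatives and *Col10a1* under 26. Another 6 genes, not called in the main fit, gained a call. These were *Myh4* with the bone level as a covariate and, under DESeq2, *mt-Nd5* and the Y-linked *Ddx3y*, *Eif2s3y*, *Kdm5d* and *Uty*. Among mice with *Xist* above 100 CPM alone, calls were lost for *Aldh3a1*, *Cxcl10*, *Mymx*, *Phka1*, *Chrng*, *Cdkn1c*, *Tnni1*, *Hspa1a* and *Hspa1b*. In that fit *Sox9*, *Srebf2*, *Inha*, *mt-Nd6*, *A930016O22Rik*, *Ube2c*, *Atf3* and *Chodl* also lost theirs. Log2 fold changes changed sign only in uncalled genes. With 1 mouse left out the values ran from -0.09 to 0.22 for *Mtm1*, up to 0.01 for *Etfdh*, from -0.06 to 0.11 for *Lpl*, up to 0.04 for *Ccdc9b*, from -0.11 to 0.56 for *Anxa8*, from -0.12 to 0.23 for *Ncam1*, from -0.27 to 0.04 for *Ryr1* and from -0.22 to 0.04 for *Atp2a1*. With the bone level as a covariate they were -0.06 for *Mtm1*, 0.10 for *Timp1*, 0.02 for *Ccdc9b* and -0.07 for *Chrne*. *Xist* as a covariate gave 0.09 for *Ccdc9b*, -0.06 for *Fam171b*, -0.04 for *Ncam1*, 0.05 for *Atp2a1* and -0.25 for *Xist*, and mice with *Xist* above 100 CPM alone gave 0.03, -0.09, -0.29, 0.19 and -0.07 in that order and -0.38 for *Anxa8*. *Ccdc9b* was at 0.00 among the 8 tamoxifen mice. Depth limited *Krt8*, *Mymx*, *Chrng* and *Col10a1*, whose WT levels rest on a few reads.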

Other observations

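Lists of protein turnover and stress are given beside the 2.7% of all genes called on tamoxifen and the 21.9% called on placebo. None of the 31 constitutive proteasome genes passed on tamoxifen. The 31 constitutive proteasome genes had a median log2 fold change of 0.14, with 29 positive, and 5 rose on placebo. None of 29 autophagy and lysosome genes passed (median -0.01, 8 rose and 1 fell on placebo), nor did any of 27 integrated stress and unfolded protein response genes (-0.07, 4 rose on placebo) or of 24 costamere and membrane repair genes (0.13, 9 rose on placebo). No gene of these lists or of the proteasome list was called for the difference of the genotype effects. In 13 immediate early genes *Atf3* was the 1 call and 12 were positive (median 0.84), against 5 that rose on placebo. *Igfbp2* was the 1 call of 10 IGF genes (median 0.04).

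Lists of regulation and transport held no call on tamoxifen, where 2.7% of all genes would give fewer than 1 in lists of this size. The medians were -0.15 for 6 ketone body genes (3 fell on placebo), -0.01 for 14 PGC-1, PPAR and estrogen-related receptor genes (5 fell on placebo), -0.22 for 19 clock genes (3 fell on placebo), -0.07 for 9 metallothionein and zinc transporter genes (4 rose and 1 fell on placebo), -0.14 for 11 estrogen receptor and target genes (1 rose on placebo) and -0.19 for 24 semaphorin, plexin and neuropilin genes (4 rose and 6 fell on placebo). Only *Mt3* among these genes was called for the difference of the genotype effects. Markers of other cells gave medians of 0.19 for 10 Schwann cell genes (0 called on placebo), -0.56 for 7 erythroid genes (1 fell on placebo) and -0.64 for 3 neutrophil and marrow genes (0 called on placebo). Among 17 cell cycle genes the median was -0.14 (4 rose and 1 fell on placebo). None of the 12 muscle defining genes and 5 sex-linked genes was called on tamoxifen in the main fit. DESeq2 called the Y-linked *Ddx3y*, *Eif2s3y*, *Kdm5d* and *Uty* lower in *Dnm2* S619L/+ (DESeq2 adjusted p from 0.00363 to 0.0422).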
